A study of Mus musculus with 46 samples.

Results

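This account follows 10 genes of threonine, serine and one-carbon metabolism through the reprogramming of mouse embryonic fibroblasts (MEF) to induced pluripotent stem cells (iPSC). They were chosen by symbol and by their place in the pathway, with earlier results of these data known. All 10 were found among the 37108 genes of the gene table and among the 35976 genes obtained by summing the transcript table by symbol. All 10 passed the filter on low values in both tables. RNA-seq was done on 46 samples. Reprogramming was driven by retroviral Oct4 together with native Nanog (labelled Nanog+Oct4, here NanogWT) or with Nanog fused to the BRG1-interacting domain of SS18, a BAF complex subunit (labelled NanogN70+Oct4, here NanogBiD). Both combinations were put on E13.5 fibroblasts of OG2 embryos, which carry an Oct4-GFP reporter. The embryos came from a cross of OG2 males and 129 females.

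Cells of both combinations were collected from D0, the end of infection, to D7 (D0, D1, D3, D5 and D7) and again on D8, D10 and D12, with 2 samples each except for 1 of NanogBiD at D8, which gave 31 time-course samples. At D0, after infection, the medium was changed to the induction medium iCD3. The iCD3 was exchanged for N2B27 with 2i and LIF at about D7, in both combinations. Changes from D0 on and changes after D7 therefore cannot be told apart from these changes of medium within a combination. The 12 iPSC samples (6 per combination) and the 1 sample of OG2 mouse embryonic stem cells (mES) were kept in that second medium without feeders. The iPSC are labelled iPSC1 or iPSC2, called line here, though the labels do not say what these names stand for. Passage and line cannot be told apart in the iPSC. By their labels, 1# and 1#-2 of the NanogWT iPSC1 line may come from a single clone, and averaging them changed no call of a member. The 2 MEF samples are the starting cells, and the study grew its fibroblasts in a medium with serum. Differences of iPSC or mES from MEF therefore cannot be told apart from the medium either. Nothing in the sources says that the samples of a group came from separate cultures, so the p-values measure the spread between these samples, which may be technical.

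Mouse embryonic stem cells are known for their dependence on threonine. Threonine dehydrogenase (TDH) and glycine C-acetyltransferase (GCAT) act in sequence in mitochondria and turn threonine into glycine and acetyl-CoA. Glycine decarboxylase (GLDC) is part of the glycine cleavage system, which as a whole passes a carbon of glycine to folate. Serine is made from a glycolytic intermediate by PHGDH, PSAT1 and PSPH in turn, and is split to glycine and a folate-bound carbon by SHMT1 in the cytosol and SHMT2 in mitochondria. MTHFD2 and MTHFD1L carry that carbon on through the mitochondrial folate pathway to formate, which feeds purine and thymidylate synthesis.

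The genes lie apart in the genome (GRCm38, GENCODE annotation). Tdh spans chr14:63492347-63509092 on the minus strand and Gcat chr15:79030874-79038353 on the plus strand, and Gldc spans chr19:30098447-30175429 on the minus strand. The serine synthesis genes are Phgdh at chr3:98313170-98339990, Psat1 at chr19:15904678-15947337 and Psph at chr5:129765558-129787449, all on the minus strand. Shmt1 spans chr11:60788104-60811718 and Shmt2 chr10:127517123-127522444, both on the minus strand. Mthfd2 lies at chr6:83305691-83325908 on the minus strand and Mthfd1l at chr10:3973118-4167081 on the plus strand. Overlapping genes on the other strand are Gm17232 for Tdh, Rpl31-ps20 for Gldc, Gm3329 for Psat1, Smcr8 and Gm24945 for Shmt1, Ndufa4l2 for Shmt2 and Cct6a for Psph. Whether the counting used strand is not given in the sources used here, so reads of such a pair cannot be told apart where they overlap.

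The promoters of 5 members are printed because they represent the sets with opposite courses described below: Gcat, Gldc and Shmt1 stood higher in iPSC than in MEF, while Mthfd2 fell in the first days and Phgdh stood lower in iPSC. Each line holds the 250 bases before the RefSeq start site (GRCm38.p6), 5′ to 3′ on the gene's own strand. Capitals mark the GC box GGGCGG and the CCAAT box on either strand, and 2 GC boxes of Shmt1 overlap by a base.
Gcat, chr15:79030624-79030873 (+ strand): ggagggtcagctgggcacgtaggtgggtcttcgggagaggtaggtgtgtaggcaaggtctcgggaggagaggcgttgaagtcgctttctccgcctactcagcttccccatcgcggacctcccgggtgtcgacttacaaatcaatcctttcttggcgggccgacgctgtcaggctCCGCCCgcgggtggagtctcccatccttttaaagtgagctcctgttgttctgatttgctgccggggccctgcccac
Gldc, chr19:30175442-30175691 (- strand): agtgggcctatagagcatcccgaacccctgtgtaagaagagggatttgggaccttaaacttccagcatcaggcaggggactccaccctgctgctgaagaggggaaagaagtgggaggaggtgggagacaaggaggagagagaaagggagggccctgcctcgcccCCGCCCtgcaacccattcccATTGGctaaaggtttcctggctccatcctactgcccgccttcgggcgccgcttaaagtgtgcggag
Shmt1, chr11:60811266-60811515 (- strand): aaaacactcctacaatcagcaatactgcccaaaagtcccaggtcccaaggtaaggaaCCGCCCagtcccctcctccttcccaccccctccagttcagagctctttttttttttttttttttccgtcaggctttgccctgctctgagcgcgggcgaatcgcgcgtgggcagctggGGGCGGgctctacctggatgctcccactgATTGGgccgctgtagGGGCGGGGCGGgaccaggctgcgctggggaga
Phgdh, chr3:98339970-98340219 (- strand): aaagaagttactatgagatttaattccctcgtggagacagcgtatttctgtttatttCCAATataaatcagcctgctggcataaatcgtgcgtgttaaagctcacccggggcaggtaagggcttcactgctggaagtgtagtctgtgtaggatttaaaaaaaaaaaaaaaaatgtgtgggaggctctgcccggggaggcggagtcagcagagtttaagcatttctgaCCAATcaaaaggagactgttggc
Mthfd2, chr6:83317605-83317854 (- strand): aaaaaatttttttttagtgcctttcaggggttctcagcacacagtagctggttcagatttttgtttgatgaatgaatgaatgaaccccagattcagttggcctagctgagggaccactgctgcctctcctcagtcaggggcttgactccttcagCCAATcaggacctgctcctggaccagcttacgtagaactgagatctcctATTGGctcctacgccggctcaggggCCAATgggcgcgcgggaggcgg

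Promoter sequences were at hand for 9 members (10 windows, since Psat1 has 2); Tdh had no entry. A GC box was found in 6 of the 10 windows (Gcat, Gldc, Shmt1, Mthfd1l, Psph and 1 of Psat1) and a CCAAT box in 6 (Gldc, Shmt1, Phgdh, Mthfd2, Psph and 1 of Psat1), against 32.7% and 33.8% of the 32851 windows in the table. Phgdh and Mthfd2 held the CCAAT box without the GC box, and Gcat held the GC box without the CCAAT box. The core of the ATF4 and C/EBP composite element TGATGNAA, the E-box CACGTG and the octamer ATGCAAAT were found in 0 of the 10 windows, and in 3.45%, 6.02% and 1.60% of all windows. These are matches of letters in these windows only.

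Expression is given in FPKM, fragments per length of the gene model, divided by what was mapped in the library, so that levels of different genes can be compared per length. Depth is not stated in the tables, but most low values of 1250 genes were whole multiples of a step, 90.1% to 93.6% of them in NanogWT from D8 and 94.4% to 97.7% in the other libraries, and the steps gave estimates of relative depth. These were 1.02 to 1.13 in NanogBiD at D0 to D7, 0.892 to 1.08 in NanogWT at D0 to D7 and 0.830 to 1.04 in NanogBiD from D8, and 1.89 to 3.26 in NanogWT from D8. Combination and depth therefore cannot be told apart from D8 on, though FPKM are scaled for depth. The same holds within NanogWT for D12 against D0 or D7, and for the interactions that use D12. The depth of the transcript table is unknown. Fibroblast markers (8 genes, among them Col1a1 and Dcn) summed to 5340 to 5948 FPKM in MEF and 11.7 in mES, and pluripotency markers (9 genes, Pou5f1 and Nanog left out) to 0.365 to 1.50 FPKM in MEF and 3650 in mES.

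In the starting cells Phgdh, Psat1, Shmt2 and Mthfd2 led the members. In MEF, Phgdh stood at 177 and 165 FPKM, Psat1 at 158 and 143, Shmt2 at 99.0 and 83.8 and Mthfd2 at 58.1 and 45.6, whereas Tdh was listed at 0 in both samples and Gldc at 0.121 and 0.0169. Shmt1 (4.26 and 4.78 FPKM), Gcat (7.05 and 5.20), Psph (8.23 and 8.83) and Mthfd1l (12.9 and 14.5) were in between. The serine synthesis genes made up 65.5% and 67.3% of the summed FPKM of the 10 genes in MEF, against 31.6% in mES. In mES the leading member was Tdh, at 189 FPKM and 24.1% of the sum, and the other values were 25.1 for Gcat, 37.1 for Gldc, 90.7 for Phgdh, 146 for Psat1, 9.98 for Psph, 60.6 for Shmt1, 125 for Shmt2, 76.7 for Mthfd2 and 22.3 for Mthfd1l.

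**Figure D1:**
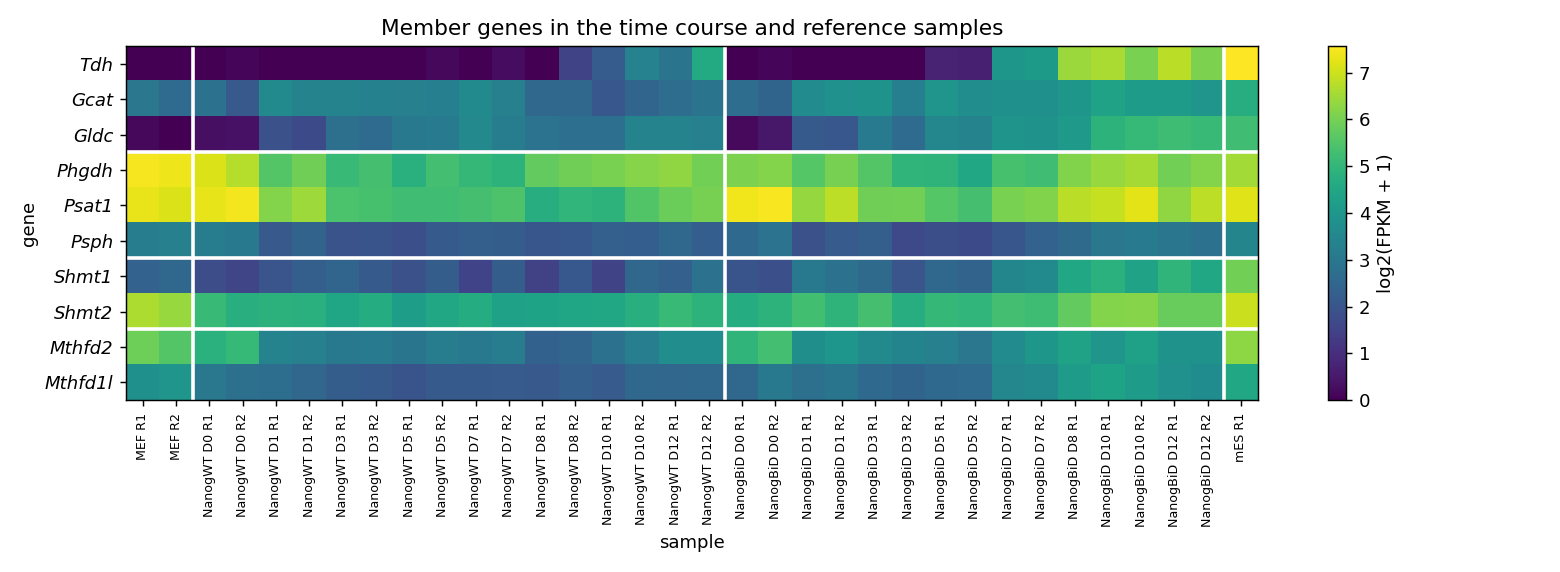
Each column is a sample of the gene table, ordered MEF, NanogWT by day, NanogBiD by day and mES, each row a member and the colour its level as log2(FPKM + 1). Tdh is at 0 FPKM in both MEF samples and stands at 15.0 and 16.6 FPKM in the NanogBiD samples at D7.

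Tdh had the largest log2 difference between the combinations among the 10 members at D7, D10 and D12. Up to D3 it stood at no more than 0.101 FPKM in any of the 12 samples, and at D5 it was at 0.658 and 0.591 in NanogBiD and at 0 and 0.113 in NanogWT. At D7 it reached 15.0 and 16.6 FPKM in NanogBiD and stood at 0 and 0.186 in NanogWT. The samples did not overlap, and the log2 difference of 3.95 ± 0.46 (SE, n = 2 against 2) passed the test (limma adjusted p = 2.4e-06). With a pseudocount of 0.1 in place of 1 it was 6.55. At D5 the difference of 0.62 did not pass (adjusted p = 0.39), nor did the 2.31 that the smaller pseudocount gave (adjusted p = 0.094). Fitted over the D0 to D7 libraries alone, the D5 difference had an adjusted p of 0.00056 but kept its size of 0.62, short of a call. Log2 differences here are on the log2(FPKM + 1) scale, which understates the change of a gene that starts near 0, and calls required a difference of 1 or more in absolute size on that scale beside an adjusted p below 0.05.

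From D7 to D12 Tdh rose in both combinations. The single NanogBiD sample at D8 stood at 85.8 FPKM, and the later ones at 96.0 and 64.4 (D10) and at 108 and 66.3 (D12). NanogWT stood at 0 and 1.90 FPKM at D8, at 3.56 and 9.22 at D10 and at 6.58 and 23.8 at D12. From D7 to D12 the log2 change was 2.35 ± 0.46 (adjusted p = 0.00031) in NanogBiD and 3.65 ± 0.46 (adjusted p = 4.8e-06) in NanogWT (6.22 with the smaller pseudocount), and the gap at D12 was 2.64 ± 0.46 (adjusted p = 7.8e-05). The lowest NanogBiD sample at D12 was above the highest NanogWT sample, while the NanogWT pair itself spread from 6.58 to 23.8. None of these samples reached the mES level of 189 FPKM.

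Between the combinations, the summed pluripotency markers were higher at D7 and D12 where Tdh was higher. Sample by sample within NanogBiD they did not always run together. The D8 sample stood at 85.8 FPKM of Tdh and 459 of these markers, and replicate 2 at D12 at 66.3 and 1304. The summed pluripotency markers stood at 127 to 139 FPKM in NanogBiD and 15.7 to 16.4 in NanogWT at D7, and at 1304 to 2310 and 171 to 246 at D12, with all 9 at 1 FPKM or more in every D12 sample. The summed fibroblast markers stood at 223 to 337 FPKM in NanogBiD and 576 to 586 in NanogWT at D7, and at 198 to 302 and 1889 to 2221 at D12, so that in NanogWT they were higher at D12 than at D7 alongside Tdh. Trophoblast markers (5 genes) summed to 7.38 to 8.61 FPKM in NanogBiD and 2.03 to 2.06 in NanogWT at D7, next to 8.59 in mES, and to at most 2.98 at D12. Only 1 of these 5 genes reached 1 FPKM in each D7 sample of either combination, and 3 did in mES. Primitive endoderm markers (5 genes) summed to at most 1.85 FPKM at D12, while blood and endothelium markers (4 genes), of which mES show 54.9 FPKM in sum, were at 19.2 to 32.2 in NanogBiD and 3.47 to 3.73 in NanogWT. Of these 4, 2 reached 1 FPKM in mES and in each NanogBiD sample at D12. Ptprc was listed at 0 in these samples, and Cdh5 was listed at 0 in mES. In such bulk samples more expressing cells and more RNA per cell cannot be told apart. The part of cell makeup in the differences given here was not tested.

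Over the 31 time-course samples, the 5 genes whose log2(FPKM + 1) followed Tdh most closely were Gm17232 (Pearson r = 0.986), Cdh1 (0.985), Utf1 (0.983), Esrrb (0.979) and Mycn (0.979), among 16842 genes tested. Gm17232 is annotated antisense within the span of Tdh and was at 0 FPKM in MEF and 59.0 in mES, so its reads cannot be told apart from those of Tdh where the genes overlap. Cdh1 encodes E-cadherin, and Utf1 and Esrrb encode transcription-associated factors of pluripotent cells. All samples share the time axis, and no test was made of these correlations.

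Gcat, which completes the step begun by TDH, stood at 5.56 and 4.39 FPKM in NanogBiD and 6.13 and 3.36 in NanogWT at D0. At D1 it was at 11.5 and 13.2 and at 11.3 and 9.50, above every D0 sample, while Tdh was listed at 0 in all 4 D1 samples, and these days were not tested against each other. From D0 to D7 its change was called in NanogBiD (1.23 ± 0.22, adjusted p = 0.00014) and fell short of the size in NanogWT (0.98 ± 0.22, adjusted p = 0.0013). The NanogBiD call was lost in size under quantile scaling (0.95). The NanogWT change was called with a pseudocount of 0.1 (1.12) or as TPM (1.21). It was 1.34 without replicate 1 at D0 and 1.15 without replicate 2 at D7. The difference between the changes was not called (limma adjusted p = 0.71 with a pseudocount of 0.1, at 0.24). At D7 it stood at 13.0 and 12.8 FPKM in NanogBiD and 11.3 and 8.84 in NanogWT, a difference that did not pass (0.34 ± 0.22, adjusted p = 0.28). NanogWT was at 4.89 and 4.85 FPKM at D8 and 3.14 and 4.59 at D10, while NanogBiD was at 15.1 at D8 and at 19.5 and 17.1 at D10. The gap of 2.00 ± 0.22 at D10 (adjusted p = 2.9e-07) narrowed to 1.25 ± 0.22 at D12 (adjusted p = 9.4e-05), at 17.0 and 14.4 FPKM against 5.49 and 6.58, and the samples overlapped at neither day. From D7 to D12 Gcat was called in neither combination (-0.65 ± 0.22 in NanogWT, adjusted p = 0.034, and 0.26 ± 0.22 in NanogBiD, adjusted p = 0.36).

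Gldc rose by D7 in both combinations. Its level was 0.146 and 0.389 FPKM in NanogBiD and 0.250 and 0.301 in NanogWT at D0, then 3.43 and 3.14 and 2.68 and 2.24 at D1, and 14.1 and 13.7 and 10.9 and 7.98 at D7. From D0 to D7 it rose by 3.56 ± 0.19 in NanogBiD (adjusted p = 1.7e-11) and by 3.02 ± 0.19 in NanogWT (adjusted p = 1.4e-10; 4.65 with the smaller pseudocount), and the test of the difference between these changes did not pass (0.55 ± 0.26, adjusted p = 0.18). After D7 only the NanogBiD change passed: it rose to 36.5 and 33.8 FPKM at D12 (1.28 ± 0.19, adjusted p = 1.3e-05), next to 37.1 in mES, and NanogWT was at 9.40 and 8.82 (-0.03 ± 0.19, adjusted p = 0.94). The gap at D12 was 1.84 ± 0.19 (adjusted p = 1.2e-07), with no overlap. The 5 genes closest to Gldc over the time course were Nup210 (r = 0.964), Clcn3 (0.957), Hap1 (0.949), Hdac6 (0.943) and Bex1 (0.943), none of which is among the 5 closest to Tdh.

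**Figure D2:**
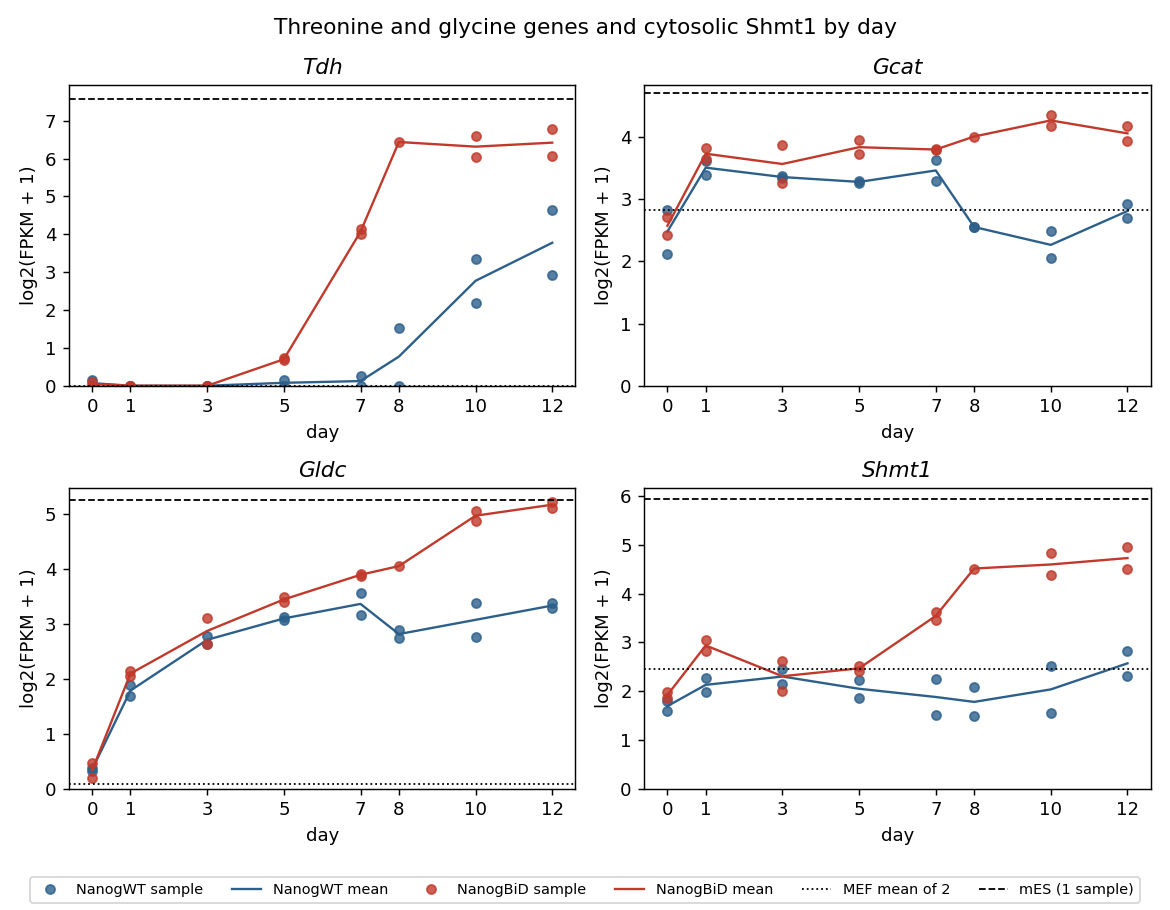
Points are samples and lines the means of NanogWT (blue) and NanogBiD (red) by day, as log2(FPKM + 1), for Tdh, Gcat, Gldc and Shmt1, with the MEF mean dotted and the mES sample dashed. Gldc leaves 0 at D1 in both combinations, whereas Tdh first passes 1 FPKM at D7 in NanogBiD and after D7 in NanogWT.

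Of the serine synthesis genes, Phgdh and Psat1 were called lower at D7 than at D0 in NanogWT and Psat1 in NanogBiD, and Psph in neither. Phgdh, the first enzyme, stood at 66.1 and 70.1 FPKM in NanogBiD and 144 and 104 in NanogWT at D0, a gap of -0.84 ± 0.22 that missed the call (adjusted p = 0.054). It was at 29.0 and 22.1 FPKM in NanogBiD and 27.2 and 38.2 in NanogWT at D5, and at D12 it was at 61.3 and 70.5 and at 78.0 and 61.0. The combinations overlapped at D12 (-0.07 ± 0.22, adjusted p = 0.82). From D0 to D7 Phgdh fell by 1.98 on the log2 scale in NanogWT (SE 0.22, adjusted p = 4.8e-07) and by 0.81 in NanogBiD (SE 0.22, adjusted p = 0.0056), which is below the size asked for a call, and from D7 to D12 it rose by 1.16 ± 0.22 in NanogWT (adjusted p = 0.00045), where the summed fibroblast markers were also higher at D12, and its 0.76 ± 0.22 in NanogBiD was short of the size (adjusted p = 0.0086). The rise in NanogWT lost its call without replicate 1 of NanogWT at D12 (0.99, adjusted p = 0.013).

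Psat1, the second enzyme, stood at 169 and 179 FPKM in NanogBiD and 154 and 172 in NanogWT at D0, and at 65.5 and 69.9 and 39.5 and 42.9 at D7. It fell from D0 to D7 by 1.35 in NanogBiD (SE 0.20, adjusted p = 2.0e-05) and by 1.96 in NanogWT (SE 0.20, adjusted p = 1.7e-07). At D10 it was at 120 and 153 FPKM in NanogBiD and at 28.5 and 44.4 in NanogWT, a gap of 1.90 ± 0.20 (adjusted p = 2.0e-07) without overlap. By D12 the gap was 0.63 ± 0.20 (79.0 and 112 against 56.9 and 64.1 FPKM), which was not called for its size (adjusted p = 0.013). Its change from D7 to D12 was called in neither combination, at 0.47 ± 0.20 in NanogBiD (adjusted p = 0.065) and 0.54 ± 0.20 in NanogWT (adjusted p = 0.056). Psph, the last enzyme, was low throughout, between 2.19 and 8.27 FPKM in the time course, and was called in none of the comparisons in NanogBiD or NanogWT or between them. Its largest gap was 0.77 ± 0.19 at D10 (adjusted p = 0.0018).

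Of the SHMT isozymes, the cytosolic Shmt1 was at 2.95 and 2.63 FPKM in NanogBiD and 2.48 and 2.01 in NanogWT at D0, at 10.1 and 11.3 against 1.86 and 3.74 at D7, and at 30.0 and 21.8 against 3.97 and 6.11 at D12. The gap was 1.66 ± 0.31 at D7 (adjusted p = 0.00041), 2.56 ± 0.31 at D10 (adjusted p = 9.7e-07) and 2.16 ± 0.31 at D12 (adjusted p = 9.4e-06), without overlap at any of these days. The mitochondrial Shmt2 stood at 99.0 and 83.8 FPKM in MEF and at 24.8 and 29.0 in NanogBiD and 33.8 and 26.0 in NanogWT at D0. It was at 70.4 and 72.0 FPKM at D10 in NanogBiD, against 22.3 and 26.0 in NanogWT (1.53 ± 0.18, adjusted p = 9.7e-07), and at D12 the gap of 0.82 ± 0.18 (adjusted p = 0.001) was below the size asked for a call. The ratio of Shmt2 to Shmt1 in FPKM was 23.2 and 17.5 in MEF and 2.06 in mES. It was 1.83 and 2.55 in NanogBiD and 8.30 and 4.72 in NanogWT at D12, and ranged from 4.72 to 13.6 over all NanogWT samples. Thus the NanogBiD samples at D7, at 3.86 and 3.18, and from D8 on, at 1.83 to 3.65, lay below every NanogWT sample of the course.

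The mitochondrial folate genes differed from each other. Mthfd1l stood at 4.91 and 7.40 FPKM in NanogBiD and 7.22 and 5.90 in NanogWT at D0. Both NanogBiD samples stood above both NanogWT samples at D1, D3 and D5, without a call. The first call of Mthfd1l came at D7, at 10.4 and 11.0 against 3.41 and 3.53 (1.39 ± 0.17, adjusted p = 3.8e-06). At D10 it was at 19.8 and 17.0 FPKM against 3.49 and 4.94 (1.91 ± 0.17, adjusted p = 1.9e-08), and at D12 at 13.1 and 11.9 against 4.59 and 4.83 (1.24 ± 0.17, adjusted p = 4.6e-06), with no overlap at these days. Mthfd2 fell from 30.0 and 38.2 FPKM in NanogBiD and 27.4 and 32.3 in NanogWT at D0 to 11.4 and 15.2 and 7.30 and 8.18 at D7, by 1.29 (SE 0.18, adjusted p = 7.6e-06) and by 1.82 (SE 0.18, adjusted p = 9.1e-08). It stayed low to D12, at 13.4 and 13.9 FPKM in NanogBiD and 12.0 and 12.0 in NanogWT, against 76.7 in mES. Its call at D10 (1.10 ± 0.18, adjusted p = 3.2e-05) was lost in size without replicate 1 of NanogWT at D10 (0.89) or without replicate 2 of NanogBiD at D10 (0.91).

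**Figure D3:**
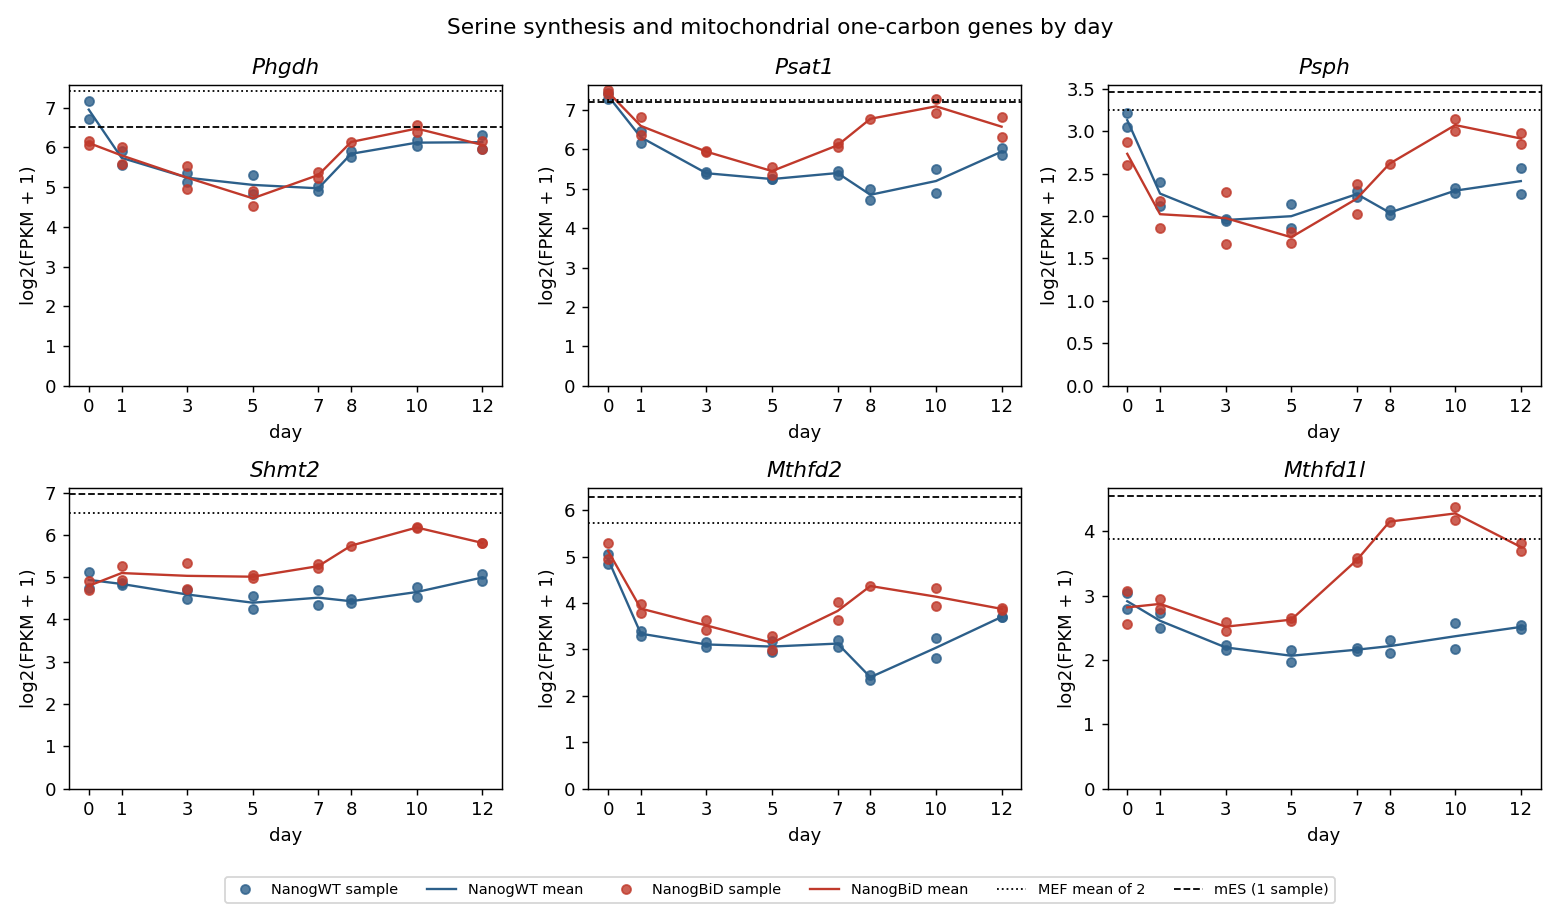
Points are samples and lines the means of NanogWT (blue) and NanogBiD (red) by day, as log2(FPKM + 1), for Phgdh, Psat1, Psph, Shmt2, Mthfd2 and Mthfd1l, with the MEF mean dotted and the mES sample dashed. Every gene shown runs below the MEF line at D5 in both combinations. At D10 the combinations do not overlap for any of them, with the widest gaps for Psat1, Shmt2 and Mthfd1l.

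The first calls of a member between the combinations came at D7. At D0, D1, D3 and D5 limma called 0 of the 10 between the combinations in either direction, with 1, 2, 3 and 3 members at an unadjusted p below 0.05. Of the 16842 genes, 2668, 2266, 3847 and 4911 were at such an unadjusted p on these days. Over all 16842 genes tested, 0.422% were called higher in NanogBiD and 0.338% lower at D0, 0.368% and 0.962% at D1, 1.25% and 2.45% at D3, and 3.2% and 3.28% at D5. At D5 Shmt2 (0.61 ± 0.18) and Mthfd1l (0.56 ± 0.17) had an adjusted p of 0.026 each and were short of a call in size only. The count at D0 became 1 (Phgdh, lower in NanogBiD) without replicate 2 of NanogWT. At D7, 3 members were higher (Tdh, Shmt1 and Mthfd1l) and 0 lower, against 5.79% and 4.65% of all genes. At D10, 8 were higher, all but Phgdh and Psph, and 0 lower, against 15.4% and 12.3%. At D12, 5 were higher (Tdh, Gcat, Gldc, Shmt1 and Mthfd1l) and 0 lower, against 13.5% and 9.97%.

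The median log2 difference over the 10 members was 0.70 at D7, 1.90 at D10 and 1.03 at D12, and that over all genes tested was 0.08, 0.10 and 0.17. At D0 both NanogBiD samples stood above both NanogWT samples for 1 member (Shmt1) and below for 2 (Phgdh and Psph), where 21% and 15.3% of all genes did so. They stood above for 6 members at D1, 4 at D3 and 7 at D5, where 26%, 25.4% and 38.4% of all genes did so, and below for 0, 0 and 1 (Psph at D5, against 24.9%). They stood above for 9 members at D7, 10 at D10 and 9 at D12, while 36.4%, 45.2% and 45.9% of all genes did so. The exceptions to 10 were Psph at D7 and Phgdh at D12.

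**Figure D4:**
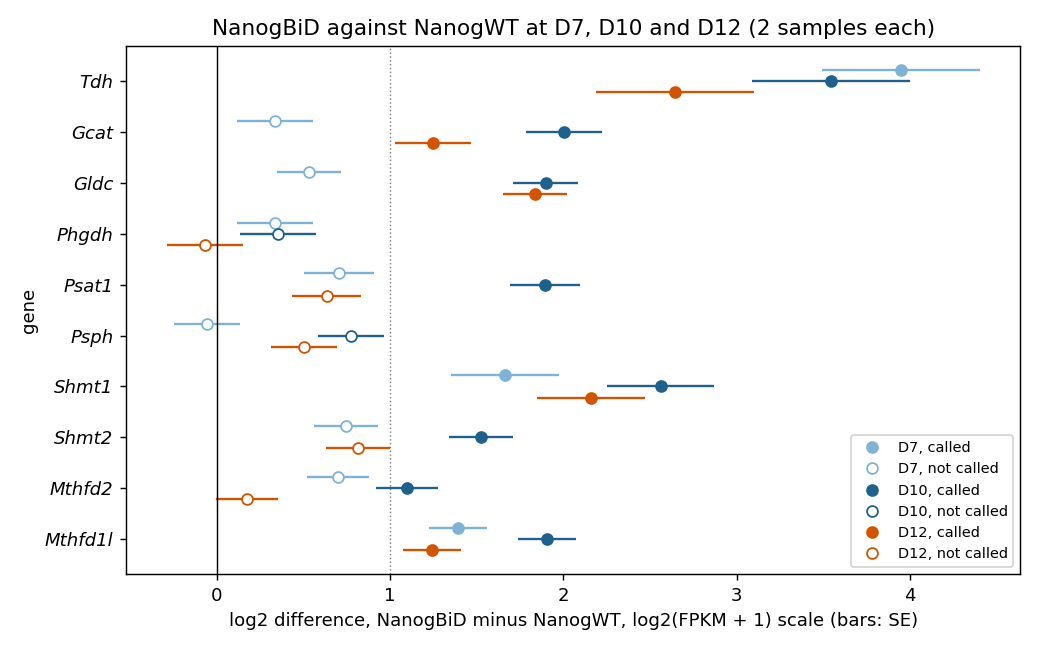
Points are log2 differences (NanogBiD minus NanogWT, log2(FPKM + 1) scale) at D7, D10 and D12 from 2 samples per combination, bars are SE, filled points passed the call and the dotted line marks the log2 difference of 1. All 10 differences at D10 lie above 0, from 0.35 for Phgdh to 3.54 for Tdh.

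Within the combinations, Gldc rose and Psat1 and Mthfd2 fell from D0 to D7 in both. From D0 to D7, 4 members rose in NanogBiD (Tdh, Gcat, Gldc and Shmt1) and 2 fell (Psat1 and Mthfd2), where 12.7% of all genes rose and 6.15% fell. In NanogWT 1 rose (Gldc) and 3 fell (Phgdh, Psat1 and Mthfd2), where 12% rose and 5.69% fell. Gcat was short of a call in size only in NanogWT, and its change was not called as different between the combinations. From D7 to D12, 3 members rose in NanogBiD (Tdh, Gldc and Shmt1) and 2 in NanogWT (Tdh and Phgdh), and 0 fell in either, where 11.6% and 6.66% of all genes rose and 8.37% and 4.62% fell. Over the whole course, D12 against D0, 5 rose (Tdh, Gcat, Gldc, Shmt1 and Shmt2) and 1 fell (Mthfd2) in NanogBiD, where 24.6% of all genes rose and 10.2% fell. In NanogWT 2 rose (Tdh and Gldc) and 2 fell (Psat1 and Mthfd2), where 12.2% rose and 3.95% fell. Shmt2 rose by 1.01 ± 0.18 in NanogBiD (adjusted p = 8.7e-05), and by 0.90 without replicate 1 of NanogBiD at D0, which is below the size asked for. Shmt1 from D7 to D12 in NanogBiD (1.19 ± 0.31, adjusted p = 0.004) was no longer called without replicate 1 at D12 (0.96, adjusted p = 0.059).

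Whether the change over time itself differed was tested as an interaction. From D0 to D7 the change was larger in NanogBiD for 4 members, Tdh (3.97 ± 0.65, adjusted p = 0.00028; 6.69 with a pseudocount of 0.1), Mthfd1l (1.49 ± 0.24, adjusted p = 0.00023), Shmt1 (1.44 ± 0.44, adjusted p = 0.03) and Phgdh (1.17 ± 0.31, adjusted p = 0.014), and smaller for 0, against 5.2% and 4.88% of all genes. For Phgdh, whose combinations already stood at different levels at D0, the interaction reads a smaller fall and not a rise. From D0 to D12 it was larger for 5, Tdh (2.67 ± 0.65, adjusted p = 0.0031; 2.89 and not called with a pseudocount of 0.1, adjusted p = 0.091), Shmt1 (1.93 ± 0.44, adjusted p = 0.0018), Gldc (1.85 ± 0.26, adjusted p = 2.0e-05), Mthfd1l (1.34 ± 0.24, adjusted p = 0.0002) and Gcat (1.15 ± 0.31, adjusted p = 0.0065), and smaller for 0, against 13.4% and 10.5%. The Gcat call was lost in size without replicate 1 of NanogWT at D0 (0.80), and with the 4 compared groups fitted alone (adjusted p = 0.069). At D7 the Shmt1 call was lost without any one of replicates 1 and 2 of NanogBiD at D0 and D7 and replicate 1 of NanogWT at D0 or D7 (adjusted p between 0.058 and 0.15), and also with the 4 compared groups fitted alone (0.076) or without the filter (0.058), and the Phgdh call without replicate 1 of NanogWT at D0 (0.94) or replicate 2 at D7 (adjusted p = 0.053).

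In the established iPSC every member was expressed, in both combinations. Tdh ranged from 239 to 381 FPKM over the 12 samples (median 329), against 0 in both MEF samples and 208 in mES in the same table, and by its mean it ranked 170 of 35976 genes, ahead of the other members. Gldc ranged from 28.0 to 53.6 FPKM (median 39.3; MEF 0.157 and 0; mES 43.1), Gcat from 20.5 to 40.0 (median 31.1; MEF 10.3 and 8.27; mES 37.9) and Shmt1 from 47.2 to 90.6 (median 67.4; MEF 5.51 and 5.78; mES 73.0). No iPSC sample overlapped MEF for these 4 members, nor for Phgdh, Mthfd1l and Mthfd2 as given below. The share of all genes without overlap was not counted. The gene and transcript tables were quantified separately and were not compared with each other, and the same MEF and mES libraries have other values in them.

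Against MEF, the iPSC were higher in Tdh (8.34 ± 0.13, adjusted p = 1.8e-13), Gldc (5.24 ± 0.18, adjusted p = 1.5e-10; 7.95 with a pseudocount of 0.1), Shmt1 (3.35 ± 0.18, adjusted p = 9.9e-09) and Gcat (1.63 ± 0.15, adjusted p = 1.1e-06), that is, 4 of 10, where 21.9% of the 13312 genes tested were higher. They were lower in 1, Phgdh (-1.37 ± 0.24, adjusted p = 0.00024), where 18.8% were lower. Phgdh ranged from 47.6 to 132 FPKM in the iPSC (median 84.9), below both MEF samples (219 and 212), and stood at 110 in mES. The remaining members were closer to the starting cells: Psat1 ranged from 66.4 to 259 FPKM (MEF 184 and 173), Psph from 18.3 to 32.7 (MEF 19.4 and 21.7), Shmt2 from 85.9 to 135 (MEF 104 and 92.7), Mthfd2 from 20.3 to 55.6 (MEF 71.1 and 58.1) and Mthfd1l from 23.9 to 41.9 (MEF 20.4 and 22.9). Mthfd1l was above MEF in every iPSC sample (0.78 ± 0.15, adjusted p = 0.00057) and Mthfd2 below MEF in every one (-0.72 ± 0.26, adjusted p = 0.026), both short of the size asked for a call. Mthfd2 in mES, at 91.9 FPKM, stood above all 12 iPSC samples, and Tdh in mES below all 12, with a single mES sample that allows no test.

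**Figure D5:**
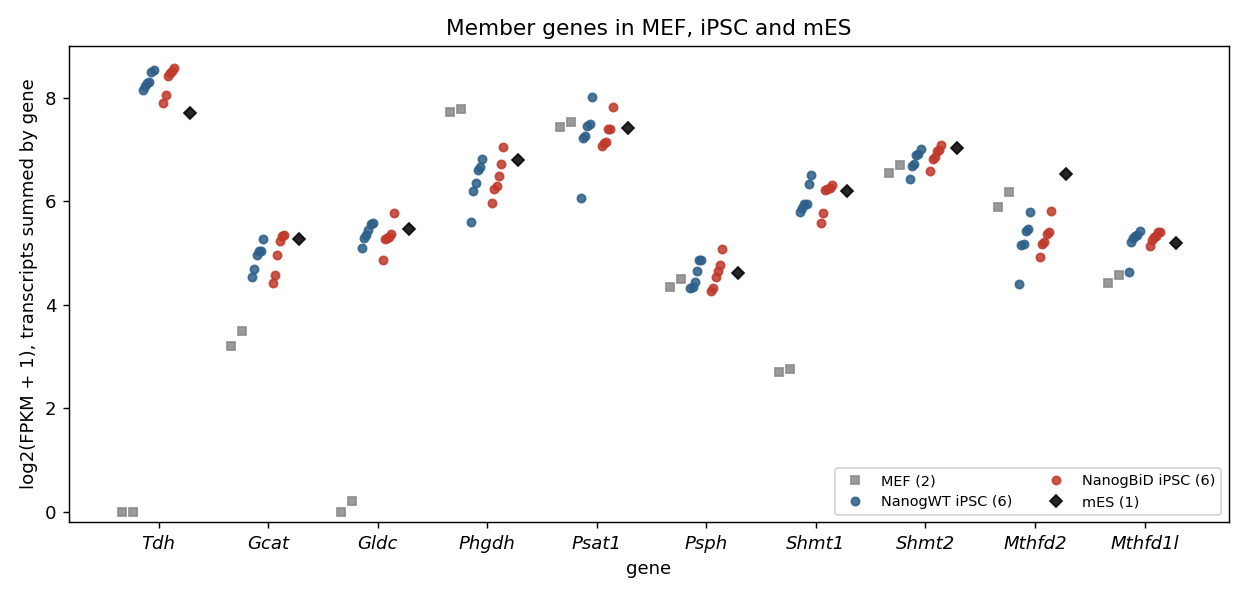
Each point is a sample of the transcript table summed by gene, as log2(FPKM + 1), for MEF (grey), NanogWT iPSC (blue), NanogBiD iPSC (red) and mES (black). Tdh and Gldc are at or near 0 in MEF and at 239 to 381 and 28.0 to 53.6 FPKM in the iPSC, and the iPSC of both combinations overlap for every member.

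Between NanogBiD and NanogWT iPSC, limma called 0 of the 10 members, and none at an unadjusted p below 0.05. It called 0% of the 12456 genes tested, 201 of them at an unadjusted p below 0.05. The member differences lay between -0.06 and 0.17 on the log2 scale, and their 95% intervals reached from -0.52 to 0.61, so that a difference of 2-fold lies outside the interval of each member. The sample labelled 9# of NanogBiD iPSC1 had the lowest Tdh (239 FPKM), Gldc (28.0), Gcat (20.5) and Shmt1 (47.2) of all 12. Its summed fibroblast markers were at 1287 FPKM, against 2.85 to 408 in the other iPSC samples and 5903 to 6364 in MEF, and the part of fibroblast RNA in its values was not tested. Leaving out any one iPSC or MEF sample changed no call of a member against MEF or between the combinations. By label, Gcat stood at 20.5 to 31.8 FPKM in the 7 iPSC1 samples and at 32.1 to 40.0 in the 5 iPSC2 samples, without overlap. The other members overlapped between these labels. The share of all genes that separate in this way was not counted, and no test was made. Summed fibroblast markers stood at 3.48 to 1287 FPKM in iPSC1 and 2.85 to 27.1 in iPSC2, and their part in the Gcat values was not tested.

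The transcript table also shows which form of a gene carried its level. Tdh, Gldc and Phgdh have 1 transcript each there. For Mthfd1l the leading transcript held a median of 69.1% of the gene's FPKM in iPSC (63.4% to 83.2%) and 82.5% and 72.7% in MEF, and a second one a median of 28.1% in iPSC. Shmt2 was split 84.3% to 15.7% in iPSC (medians), and in MEF the leading share was 84.3% in one sample and 67.3% in the other. Shmt1 was split 78.2% to 21.8% in iPSC and 86.7% and 85.6% against 13.3% and 14.4% in MEF. In the remaining members the leading transcript held a median of over 99% in iPSC.

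Genes around the pathway were counted from lists of 47 further genes, of which 43 were tested in the time course. At D7, 5 were higher in NanogBiD and 3 lower, at D10, 16 and 5, and at D12, 12 and 5. The shares of all genes called at these days are those given above, and the list median was 0.46, 0.46 and 0.33. At D12 the higher ones included Amt, the aminomethyltransferase that works beside GLDC (2.94 ± 0.30), Mthfd1 of cytosolic folate (1.88 ± 0.19), the folate receptor Folr1 (2.36 ± 0.28), Fpgs, which retains folate in the cell, Gart, Ppat, Paics and Pfas of purine synthesis, Ahcy of the methyl cycle, Cbs of transsulfuration and the transporter Slc1a5. The lower ones were Aldh1l1, which oxidises formyl-folate (-1.33 ± 0.30), Nnmt, Sdsl, Sardh (-1.35 ± 0.22) and Slc7a10. In D12 against D0, 14 of the 43 rose and 2 fell in NanogBiD, where 24.6% and 10.2% of all genes did. In NanogWT 5 rose and 0 fell, where 12.2% and 3.95% did. In iPSC against MEF 20 rose and 7 fell, where 21.9% and 18.8% did, led upward by Folr1 (5.54 ± 0.18), Cbs (5.10 ± 0.15) and Amt (5.05 ± 0.12) and downward by Aldh1l2 (-4.02 ± 0.29), the mitochondrial counterpart of Aldh1l1.

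Amino acid response genes, many of them targets of the factor ATF4, moved in both directions. Of 8 (Atf4, Asns, Chac1, Ddit3, Trib3, Atf5, Sesn2 and Slc7a11), Asns was higher (2.08 ± 0.24) and Atf5 (-2.08 ± 0.26) and Slc7a11 (-1.75 ± 0.27) lower in NanogBiD at D12, where 13.5% and 9.97% of all genes were called. Trib3 (-1.08 ± 0.26) and Atf5 (-1.40 ± 0.26) were already lower in NanogBiD at D0, where 0.338% were. In the change from D0 to D12 Asns was called larger in NanogBiD and Slc7a11 smaller, against 13.4% and 10.5%, and Atf5 was not called (-0.68 ± 0.37, adjusted p = 0.16). In iPSC against MEF, Asns, asparagine synthetase, was higher (1.88 ± 0.21), and Chac1, Ddit3, Trib3, Atf5 and Slc7a11 were lower, from -1.81 for Trib3 to -3.31 for Ddit3, where 21.9% of all genes were higher and 18.8% lower.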

How the data were processed

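RNA-seq of 46 mouse samples was analysed. Per the methods of the study and the submitters' processing notes, the authors trimmed reads with Trim Galore (0.6.4), aligned them to mm10 with HISAT2 (2.2.1) and quantified them with StringTie (2.2.1). The annotation and the use of strand are not given in the sources used here. The deposited values are FPKM, made by the authors and kept per sample, in a gene table (37108 genes, 34 samples) and a transcript table (106520 transcripts, 15 samples). Transcripts were summed by symbol. FPKM are not counts, and the study's own caller GFOLD, which needs mapped reads, was not used.

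Genes that reached 1 FPKM in 2 or more samples were tested with limma (3.58.1, in R 4.3.3; eBayes with trend) on log2(FPKM + 1), with a mean per combination and day over all 31 time-course samples, so that groups of 2 share one estimate of the spread, and Benjamini-Hochberg adjustment over all genes tested. NanogBiD at D8, with 1 sample, entered no contrast. For the iPSC against MEF, means per combination and line were fitted, and between the combinations the line was a covariate. A call needed an adjusted p below 0.05 with an absolute log2 difference of 1 or more (2-fold). All tests are two-sided, and all adjusted p-values of single genes are limma's. Promoter windows are RefSeq's (GRCm38.p6) and gene spans are from GENCODE on GRCm38. The GC and CCAAT boxes were searched after the other motifs had given no match.

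FPKM keep no counts, so no counting interval or detection floor is given. A value is called a whole multiple of the step within 0.03 of a read. The alternatives tried were a pseudocount of 0.1, no filter, TPM and quantile scaling, the compared groups alone, no trend, a replicate block, and each sample left out. All members are named, ordered by role, related genes only where called (1 called gene is not reported here by name), and the 5 genes most like Tdh and Gldc by Pearson r. The members and lists were chosen with earlier results of these data known. No other tables of the study were used here.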

Additional observations from a re-analysis of the deposited data

Results flagged for a closer look

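The change over time differed between the combinations, by the interaction test, for 4 members from D0 to D7 and for 5 from D0 to D12. From D0 to D7 the change was larger in NanogBiD by 3.97 for Tdh, 1.17 for Phgdh, 1.44 for Shmt1 and 1.49 for Mthfd1l on the log2(FPKM + 1) scale. From D0 to D12 it was larger by 2.67 for Tdh, 1.15 for Gcat, 1.85 for Gldc, 1.93 for Shmt1 and 1.34 for Mthfd1l. Without 1 sample the number of members called ranged from 2 to 5 for D0 to D7 and from 4 to 7 for D0 to D12. The calls of Shmt1 and Phgdh in the first and of Gcat and Tdh in the second were each lost under at least 1 of the alternatives.

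Among the 20 groups of 6 iPSC samples (10 genes in each combination), 1 held a sample far from the others. Mthfd1l stood at 23.9 FPKM in the NanogWT sample 2# of iPSC1, with the next at 36.0 and the highest at 41.9. Chance flags about 1 in 20 such groups. The same sample had the lowest Psat1 (66.4 FPKM) and Mthfd2 (20.3) of the 12, and one of the lowest sums of fibroblast markers (3.48 FPKM). Its summed pluripotency markers stood at 5198 FPKM, against 1942 to 3644 in the other 11 iPSC samples, and the cause was not tested.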

How the results depend on the processing

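Of 2190 recomputed member differences, 2143 kept their side of the call, 20 lost the call and 27 gained it. Of those called in either fit, 0 reversed direction. Where neither fit made a call, direction was not compared, and small differences could change sign. The number of members called without 1 sample ranged from 0 to 1 for NanogBiD against NanogWT at D0, 0 to 0 at D1, D3 and D5, 3 to 3 at D7, 7 to 8 at D10 and 5 to 5 at D12. It ranged from 6 to 6 and 5 to 8 for NanogBiD D7 and D12 against D0, 4 to 5 for both in NanogWT, 2 to 3 and 1 to 2 for D12 against D7, 2 to 5 and 4 to 7 for the interactions at D7 and D12, 5 to 5 for iPSC against MEF and 0 to 0 between the iPSC. The D0 value of 1 came without replicate 2 of NanogWT, the value of 1 in NanogWT D12 against D7 without replicate 1 at D12 and the interaction value of 2 at D7 without replicate 1 of NanogWT at D0. Under a pseudocount of 0.1 the interaction of Tdh at D12 was 2.89 with an adjusted p of 0.091 (0.0031 as reported), and that of Shmt1 at D7 had an adjusted p of 0.058 without the filter. The compared groups alone left Gcat at D12 at an adjusted p of 0.069.

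With a replicate block, 0 of 150 member calls changed, and the called members at D10 stayed at 8. Samples of one number did not deviate together throughout (r from -0.06 at D3 to 0.39 at D7). With 2 samples per group this cannot decide whether the number pairs them. Quantile scaling moved the median of all genes by -0.36 for NanogBiD D12 against D0 and TPM by 0.17 for NanogWT D12 against D0. In the fit over D0 to D7 alone, chosen after seeing the data, 80 of 80 member values kept their call. Depth could not be judged for the transcript table.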
